A study of Mus musculus with 8 samples.

Results

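The 10 genes described here serve serine synthesis and the amino acid response driven by ATF4: Atf4, Ddit3, Trib3, Chac1, Asns, Phgdh, Psat1, Psph, Shmt2 and Mthfd2. They were taken by gene symbol from the deposited expression table, where each had 1 row among 20258 rows with a symbol, and all 10 varied between libraries and were among the 13615 genes tested. When amino acids run short or the endoplasmic reticulum is stressed, kinases phosphorylate the translation factor eIF2 alpha, which lowers protein synthesis in general but favours translation of the Atf4 mRNA. The ATF4 protein then pairs with C/EBP factors on a composite DNA element and turns on genes for amino acid uptake and synthesis, while Phgdh, Psat1 and Psph make serine from a glycolysis intermediate and Shmt2 and Mthfd2 pass its carbon into the mitochondrial folate cycle. Since ATF4 is controlled largely by translation, its mRNA level is not a measure of its protein.

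Bone-marrow derived macrophages from C57BL/6 mice were kept for 24 h with bacterial lipopolysaccharide plus interferon gamma (LPS plus IFNg, 3 libraries), with the cytokine IL4 (3 libraries) or without stimulus (2 libraries). LPS plus IFNg is the usual stimulus for classical and IL4 for alternative activation of macrophages, which are immune cells grown here from marrow precursors. Libraries of 3' end sequencing read the end of each polyadenylated transcript, and the deposited values are log2 expression after quantile normalisation by the authors. A difference of 1 is thus a doubling. Nothing in the labels tells whether a group's replicates were separate mice or separate dishes. The p-values therefore rest on the spread among these libraries alone, which may be technical. All 7 macrophage markers had a mean level of at least 5 on the log2 scale, with a log2 summed level of 13.64 to 13.73 with LPS plus IFNg, 13.19 to 13.77 with IL4 and 14.25 to 14.33 without stimulus. Of the neutrophil and granulocyte precursor markers, 3 of 7 had a mean of at least 5, and their log2 summed level was 7.65 to 8.20 with LPS plus IFNg, 9.87 to 10.70 with IL4 and 11.04 to 11.20 without stimulus. All 4 fibroblast markers had a mean of at least 5 (log2 summed level 10.21 to 11.20 with LPS plus IFNg, 10.12 to 10.69 with IL4 and 11.20 to 11.61 without stimulus), while no dendritic cell, lymphocyte, mast cell or erythroid marker did. The part of these other cells in any result was not tested, and in bulk samples fewer cells of a type and less RNA per cell cannot be told apart. The read depth is unknown. Of the genes tested, 2964 to 2985 were listed at 0 in LPS plus IFNg libraries, 3204 to 3568 in IL4 libraries, and 1577 and 2588 in the unstimulated ones, and the part of this difference in the comparisons with no stimulus was not tested.

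Atf4 mRNA, which encodes the transcription factor of the response, stood at 11.77, 11.88 and 12.26 (log2) in the LPS plus IFNg libraries, at 11.92, 11.30 and 11.08 in the IL4 libraries, and at 10.58 and 11.31 without stimulus. All LPS plus IFNg libraries lay above both unstimulated ones, while the IL4 libraries overlapped with both other groups. The means were 11.97 ± 0.26 (SD, n = 3) with LPS plus IFNg, 11.43 ± 0.44 (n = 3) with IL4 and 10.95 ± 0.51 (n = 2) without stimulus. The log2 difference of LPS plus IFNg from no stimulus was 1.02 (SE 0.34, 95% interval 0.24 to 1.81), and in limma with Benjamini-Hochberg adjustment over all genes tested it did not pass (adjusted p = 0.132). For IL4 the difference from no stimulus was 0.48 (95% interval -0.30 to 1.27, adjusted p = 0.628), and between LPS plus IFNg and IL4 it was 0.54 (95% interval -0.16 to 1.24, adjusted p = 0.329).

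Ddit3 encodes CHOP, a C/EBP-like factor that ATF4 induces under prolonged stress. Its level was 7.85, 8.05 and 9.88 (log2) with LPS plus IFNg, against 6.78, 7.04 and 7.13 with IL4 and 7.24 and 7.45 without stimulus. The groups followed each other without overlap, with LPS plus IFNg at the top and IL4 at the bottom, and LPS plus IFNg replicate 3 stood well above the other 2 libraries of its group. The log2 difference was 1.61 (SE 0.51, 95% interval 0.41 to 2.82) between LPS plus IFNg and IL4 (adjusted p = 0.0915). From no stimulus, LPS plus IFNg differed by 1.25 (95% interval -0.10 to 2.60, adjusted p = 0.297) and IL4 by -0.37 (95% interval -1.71 to 0.98, adjusted p = 0.876), and none of these passed. Without LPS plus IFNg replicate 3 the log2 difference was 0.97 over IL4 (adjusted p = 0.0580) and 0.60 over no stimulus (adjusted p = 0.300). The difference over IL4 did not pass with any library left out (adjusted p of 0.0580 to 0.206). It passed when the 0.25 of genes with the lowest means were left out (adjusted p = 0.0261). It also passed after scaling the libraries to equal means of 11 housekeeping genes (adjusted p = 0.0202) or of ribosomal protein genes (adjusted p = 0.00167), which moved the median of all genes by 0.51 and 1.46 in this comparison.

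Trib3 encodes a pseudokinase that ATF4 and CHOP induce and that in turn binds ATF4. It stood at 5.85, 6.27 and 7.23 (log2) in the LPS plus IFNg libraries, at 3.47, 0 and 2.56 in the IL4 libraries, and at 1.73 and 4.01 without stimulus. Every LPS plus IFNg library lay above every other library, and the IL4 and unstimulated libraries overlapped. Trib3 rose in LPS plus IFNg over IL4 by 4.44 on the log2 scale (SE 1.13, 95% interval 1.79 to 7.09, limma adjusted p = 0.0436), with means of 6.45 ± 0.70 (SD, n = 3) with LPS plus IFNg and 2.01 ± 1.80 (n = 3) with IL4. The size is uncertain, since 1 IL4 library is listed at 0 and low values come in steps: the value 3.47 of IL4 replicate 1 was shared by 137 rows of that library. Over no stimulus the difference of LPS plus IFNg was 3.58 (SE 1.26, 95% interval 0.61 to 6.55), which did not pass (adjusted p = 0.165). IL4 differed from no stimulus by -0.86 (95% interval -3.82 to 2.11, adjusted p = 0.859). The call between the stimuli was kept without IL4 replicate 1 (adjusted p = 0.0432) and lost without IL4 replicate 2 or 3 (0.0695 and 0.0730), LPS plus IFNg replicate 1, 2 or 3 (0.0871, 0.109 and 0.132) and unstimulated replicate 1 or 2 (0.0616 and 0.0732), with a log2 difference of 3.43 to 5.17 over these 8 fits.

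**Figure D1:**
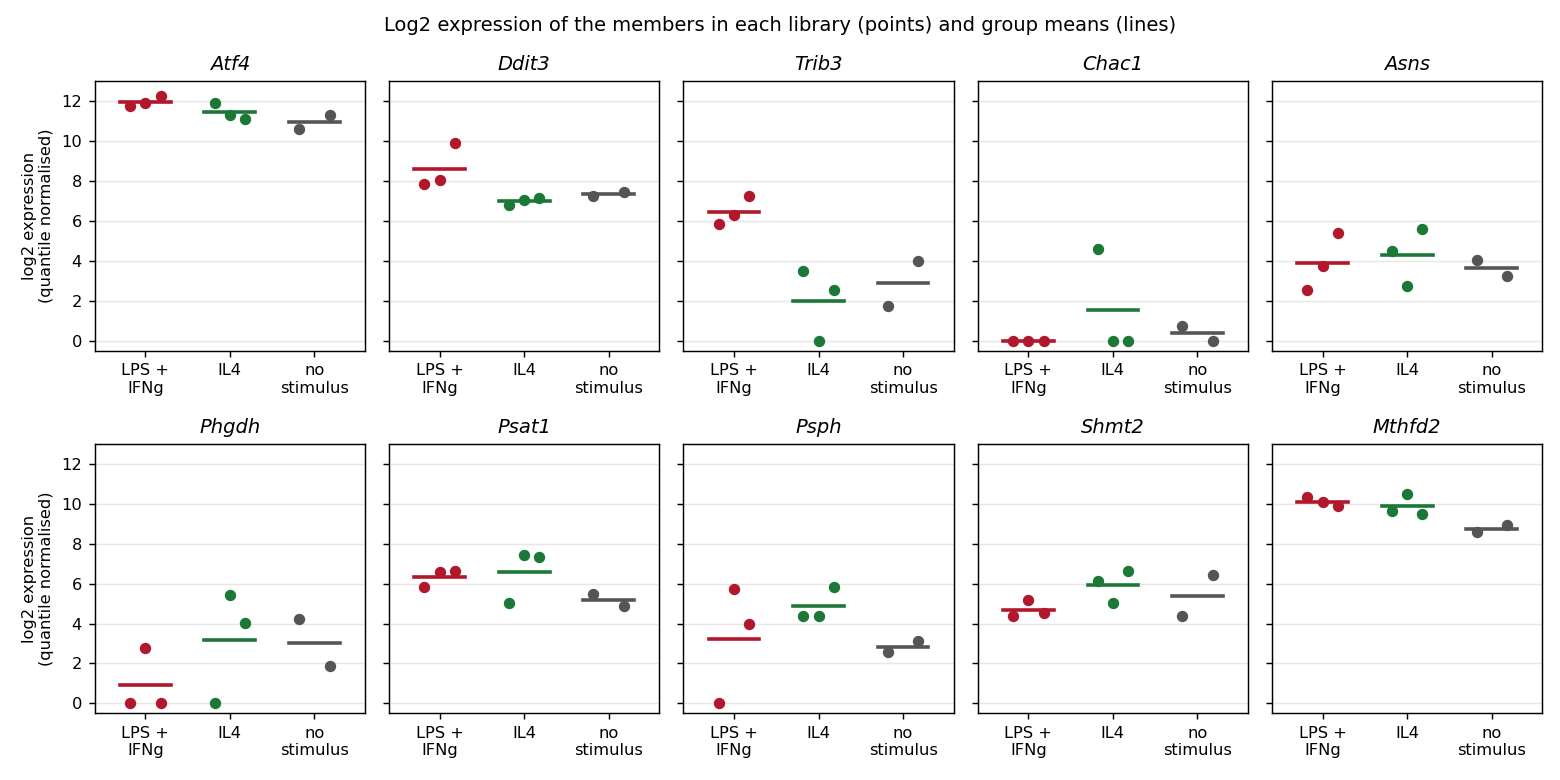
Log2 expression (vertical axis) of the 10 genes in each library (points) by group, with lines at the group means, for LPS plus IFNg, IL4 and no stimulus. The LPS plus IFNg libraries of Trib3 lie between 5.85 and 7.23, above all others, and both unstimulated libraries of Mthfd2 lie below all stimulated ones, at 8.56 and 8.92.

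Chac1, an enzyme that degrades glutathione and a late target of the ATF4 and CHOP pathway, was close to undetected. It had a listed value of 0 in each of the 3 LPS plus IFNg libraries, of 4.61, 0 and 0 in the IL4 libraries and of 0.74 and 0 without stimulus. The value 4.61 was shared by 88 rows of IL4 replicate 1, so it is a single low step in 1 library, and IL4 and no stimulus did not differ beyond their spread (adjusted p = 0.789).

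Asns, asparagine synthetase, makes asparagine from aspartate and is a classical ATF4 target. It stood at 2.55, 3.75 and 5.41 (log2) with LPS plus IFNg, at 4.50, 2.73 and 5.61 with IL4 and at 4.05 and 3.26 without stimulus, so all groups overlapped. The log2 differences were 0.25 (95% interval -2.55 to 3.04) for LPS plus IFNg and 0.63 (95% interval -2.17 to 3.42) for IL4, each against no stimulus, and -0.38 (95% interval -2.88 to 2.12) for LPS plus IFNg against IL4. None passed (adjusted p = 0.961, 0.917 and 0.891), and the intervals are wide.

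Promoter windows of RefSeq (build GRCm38.p6, 250 bases before to 50 after the annotated start) were found for all 10 genes, 11 windows in all, since Psat1 has 2. They were searched on both strands for the core of the C/EBP-ATF response element, TGATGNAA, the site class that ATF4 binds with C/EBP partners, and for the cAMP response element TGACGTCA. The first matched in 3 windows, of Trib3, Asns and Chac1, and in 3.97% of all 32851 windows of that length, and the second in 0 of the 11 and in 1.79% of all, so no matches of the 2 motifs overlapped in these windows. The deposited table rests on build mm9 and the windows do not. These genes were listed as part of the ATF4 response, so the share is a description. The windows of Trib3 and Mthfd2 are shown because these 2 genes passed the test in 1 comparison each, and that of Asns because it carries the element although its level overlapped between all groups; capitals mark a match.
Trib3, minus strand of chr2:152344011-152344310: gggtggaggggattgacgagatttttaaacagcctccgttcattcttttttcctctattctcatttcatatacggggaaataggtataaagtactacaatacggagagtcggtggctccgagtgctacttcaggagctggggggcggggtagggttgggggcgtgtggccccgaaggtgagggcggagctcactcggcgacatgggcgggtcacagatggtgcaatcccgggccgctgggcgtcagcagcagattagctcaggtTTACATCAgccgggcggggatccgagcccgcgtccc
Mthfd2, minus strand of chr6:83317555-83317854: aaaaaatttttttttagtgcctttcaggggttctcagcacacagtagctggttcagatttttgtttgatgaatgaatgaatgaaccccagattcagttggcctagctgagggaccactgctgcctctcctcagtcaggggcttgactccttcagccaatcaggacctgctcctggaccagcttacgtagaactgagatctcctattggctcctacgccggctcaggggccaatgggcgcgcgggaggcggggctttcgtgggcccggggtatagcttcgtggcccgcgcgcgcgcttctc
Asns, minus strand of chr6:7693160-7693459: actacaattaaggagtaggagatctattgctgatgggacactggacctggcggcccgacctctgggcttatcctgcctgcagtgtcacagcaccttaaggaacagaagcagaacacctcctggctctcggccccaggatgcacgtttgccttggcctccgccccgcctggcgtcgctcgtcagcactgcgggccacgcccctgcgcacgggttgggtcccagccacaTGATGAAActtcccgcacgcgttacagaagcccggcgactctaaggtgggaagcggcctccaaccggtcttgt
The Trib3 match, TTACATCA, reads on the opposite strand and begins at base 15 after the start, the Asns match, TGATGAAA, begins at -23, and the Chac1 match, TTGCATCA on the opposite strand, begins at -193. The Mthfd2 window holds no match, which says only that these letters are not in this window.

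None of the 3 enzymes of serine synthesis passed in any comparison. Phgdh and Psph were low, with means of 2.29 and 3.74 over the 8 libraries, and Psat1 had a mean of 6.14 and no value of 0. Phgdh, which takes the first step, was at 0, 2.77 and 0 (log2) with LPS plus IFNg, at 0, 5.45 and 4.01 with IL4 and at 4.20 and 1.86 without stimulus. It was listed at 0 in 2 of 3 LPS plus IFNg libraries, 1 of 3 IL4 libraries and neither unstimulated one, and its log2 difference was -2.11 (95% interval -6.27 to 2.05, adjusted p = 0.605) for LPS plus IFNg and 0.12 (95% interval -4.04 to 4.28) for IL4, against no stimulus. Psat1, the aminotransferase of the second step, was at 5.81, 6.59 and 6.62 with LPS plus IFNg, at 5.01, 7.41 and 7.33 with IL4 and at 5.48 and 4.86 without stimulus. The LPS plus IFNg libraries all lay above the unstimulated ones, and 2 of the 3 IL4 libraries did. Its log2 difference from no stimulus was 1.17 (SE 0.76, adjusted p = 0.477) with LPS plus IFNg and 1.41 (SE 0.76, adjusted p = 0.514) with IL4, and -0.24 (95% interval -1.84 to 1.36) between LPS plus IFNg and IL4. Psph, the phosphatase that releases serine, was at 0, 5.72 and 3.96 with LPS plus IFNg, at 4.36, 4.39 and 5.83 with IL4 and at 2.57 and 3.12 without stimulus. All IL4 libraries lay above both unstimulated ones, and the LPS plus IFNg libraries spanned both groups. The log2 difference of IL4 from no stimulus was 2.02 (SE 1.62, 95% interval -1.77 to 5.81, adjusted p = 0.701).

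Of the mitochondrial folate enzymes, 1 of 2 passed in a comparison. Mthfd2, the dehydrogenase and cyclohydrolase of that pathway, stood at 10.31, 10.10 and 9.86 (log2) with LPS plus IFNg, at 9.65, 10.50 and 9.50 with IL4 and at 8.56 and 8.92 without stimulus. Every stimulated library lay above both unstimulated ones, and the 2 stimuli overlapped. Mthfd2 rose with LPS plus IFNg over no stimulus by 1.35 on the log2 scale (SE 0.33, 95% interval 0.59 to 2.11, limma adjusted p = 0.0492), a 2.55-fold difference, with means of 10.09 ± 0.23 (SD, n = 3) with LPS plus IFNg and 8.74 ± 0.26 (n = 2) without stimulus. With IL4 its mean was 9.88 ± 0.54 (n = 3), a log2 difference of 1.15 (SE 0.33, 95% interval 0.38 to 1.91) from no stimulus that did not pass (adjusted p = 0.187). The difference between LPS plus IFNg and IL4 was 0.21 (95% interval -0.48 to 0.89, adjusted p = 0.707). The call was kept without IL4 replicate 2 or 3 (adjusted p = 0.0143 and 0.0472) and lost without IL4 replicate 1 (0.0703), LPS plus IFNg replicate 1, 2 or 3 (0.125, 0.123 and 0.0815) and unstimulated replicate 1 or 2 (0.250 and 0.174), while the log2 difference stayed between 1.17 and 1.53. Without the intensity trend in the prior variance the adjusted p was 0.107. Shmt2, which splits serine into glycine and a one-carbon unit, was at 4.39, 5.17 and 4.50 with LPS plus IFNg, at 6.14, 5.04 and 6.64 with IL4 and at 4.36 and 6.41 without stimulus. The groups overlapped. The log2 differences were -0.70 (95% interval -2.53 to 1.13) for LPS plus IFNg and 0.56 (95% interval -1.27 to 2.39) for IL4, each against no stimulus, and -1.25 (95% interval -2.89 to 0.38) for LPS plus IFNg against IL4.

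Across the list, 1 of 10 genes rose with LPS plus IFNg over no stimulus (Mthfd2) and 0 fell, where 3.72% of all genes tested passed as higher and 4.25% as lower. At an unadjusted p under 0.05 there were 3 higher (Atf4, Trib3 and Mthfd2) and 0 lower, with 19.4% of all genes in either direction. The groups did not overlap for 5 genes, all higher (Atf4, Ddit3, Trib3, Psat1 and Mthfd2), against 16.1% of all genes higher and 20.7% lower. For IL4 over no stimulus limma called 0 of 10, where 0.514% of all genes passed as higher and 0.793% as lower, and 1 had an unadjusted p under 0.05 (Mthfd2) with 12.1% of all genes. Psph and Mthfd2 were higher and Ddit3 lower with IL4 without overlap, against 11.7% and 14.7% of all genes. Between LPS plus IFNg and IL4, 1 of 10 rose (Trib3) and 0 fell, against 5.91% and 6.96% of all genes, with 2 of 10 higher and 0 lower at an unadjusted p under 0.05 (25.5% of all genes in either direction). Those 2 genes, Ddit3 and Trib3, were also the ones with no overlap, which 12.4% of all genes showed as higher and 14.8% as lower. The median log2 difference of the 10 genes was 0.70 for LPS plus IFNg and 0.59 for IL4 over no stimulus, and -0.31 for LPS plus IFNg over IL4, beside medians of -0.04, -0.01 and 0 over all genes tested. Comparisons with no stimulus share the same 2 unstimulated libraries.

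**Figure D2:**
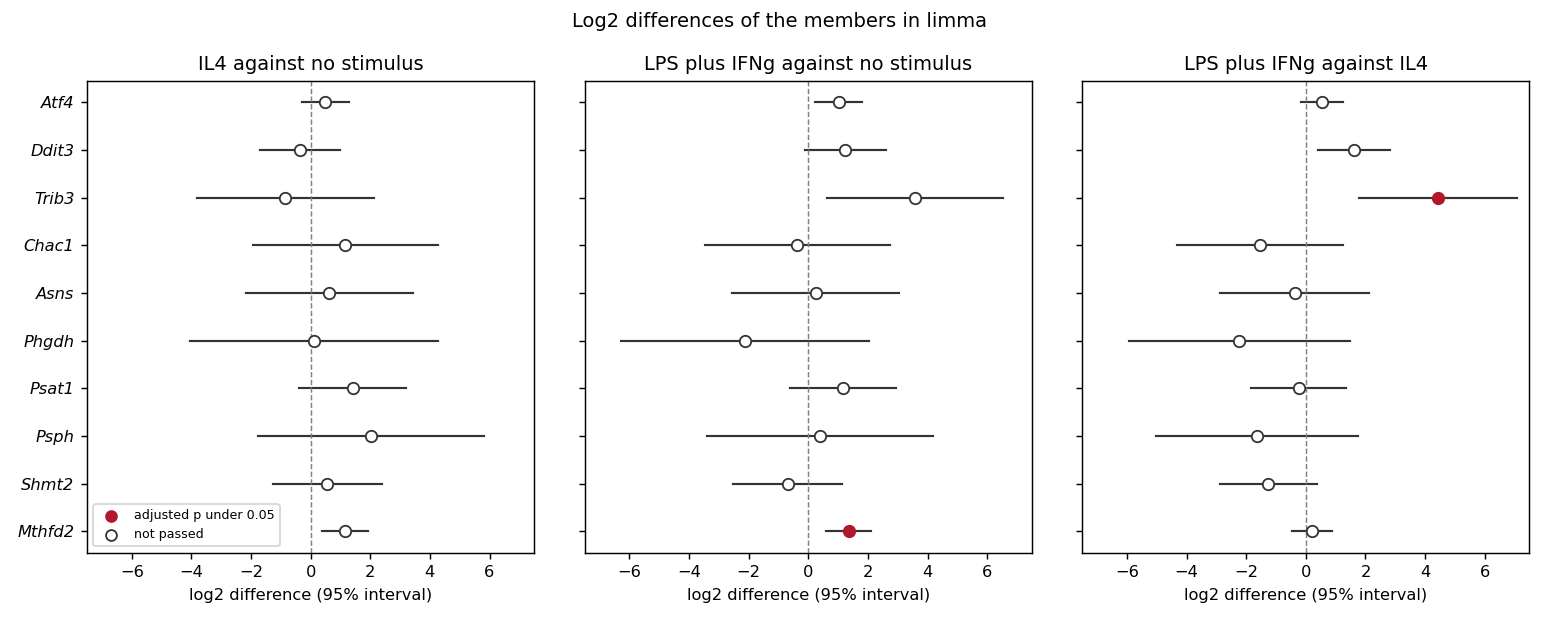
Log2 differences of the 10 genes in limma (points) with 95% intervals (lines) in the 3 comparisons; filled points passed at an adjusted p under 0.05. Mthfd2 passed for LPS plus IFNg against no stimulus (1.35) and Trib3 for LPS plus IFNg against IL4 (4.44), and the intervals of Phgdh and Psph span more than 6 log2 units in every panel.

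Scaling the libraries to equal housekeeping means, which raised the median of all genes to 0.59 from no stimulus and 0.51 from IL4 in LPS plus IFNg, gave 2 of the 10 genes higher in each of these comparisons: Atf4 and Mthfd2 over no stimulus, and Ddit3 and Trib3 over IL4. Of all 13615 genes tested, that scaling called 1002 higher over no stimulus and 1423 over IL4, in place of 506 and 804.

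**Figure D3:**
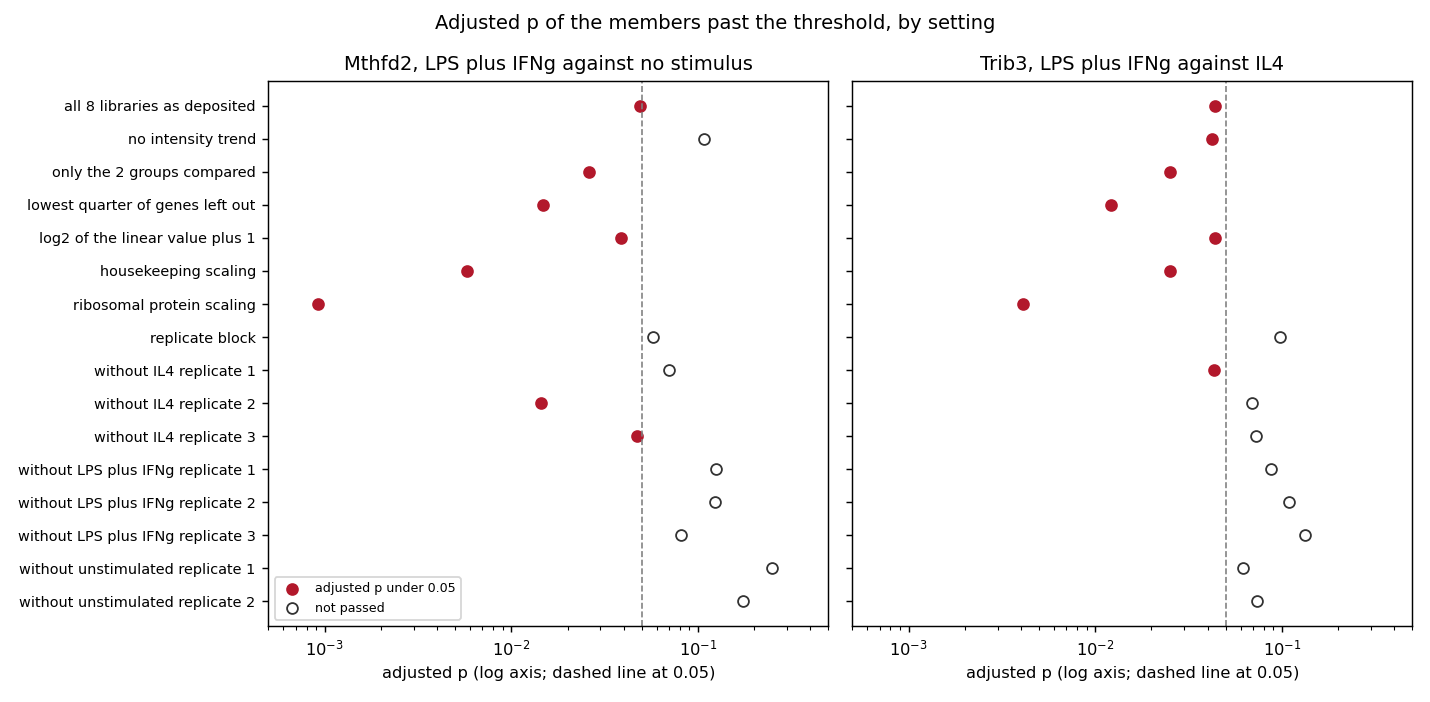
Adjusted p (horizontal log axis, dashed line at 0.05) of Mthfd2 for LPS plus IFNg against no stimulus and of Trib3 for LPS plus IFNg against IL4 under each setting (rows). With all 8 libraries as deposited the points lie at 0.0492 and 0.0436, and most fits that leave out 1 library lie to the right of the line.

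Other genes of the ATF4 response were higher with LPS plus IFNg in part, and others were lower without passing. Of 28 targets and partners tested outside the 10 genes, 4 rose over no stimulus, 0 fell and 24 did not pass. At an unadjusted p under 0.05, 8 were higher and 4 lower. Of all genes tested, 3.72% passed as higher and 4.25% as lower, and 19.4% had an unadjusted p under 0.05 in either direction. The list median was 0.75, beside -0.04 over all genes tested. Slc7a11, the cystine transporter, had the largest change of the 4 that rose, a log2 difference of 5.12 (limma adjusted p = 0.00215). Its means were 9.40 ± 0.54 (n = 3) with LPS plus IFNg and 4.28 ± 0.39 (n = 2) without stimulus. Nupr1, a stress-induced chromatin protein, rose by 3.76 (adjusted p = 0.0339), Jdp2, a leucine zipper factor, by 3.63 (adjusted p = 0.0106) and Cebpb, a C/EBP partner of ATF4, by 1.53 (adjusted p = 0.0306). Slc7a11 passed whichever library was left out. Jdp2 did not without unstimulated replicate 1, and Nupr1 and Cebpb did not without any single LPS plus IFNg or unstimulated library. The 4 lower genes at the unadjusted threshold were Slc1a5, Slc1a4, Pck2 and Slc38a2. Their log2 differences from no stimulus were -2.00, -1.89, -1.33 and -0.92 (limma adjusted p = 0.170, 0.202, 0.249 and 0.150). Slc1a4 was listed at 0 in each of the 3 LPS plus IFNg libraries. Ppp1r15a, the stress-induced subunit of the eIF2 alpha phosphatase, stood at 8.75, 9.30 and 8.52 with LPS plus IFNg, against 7.59 and 7.45 without stimulus, and did not pass (log2 difference 1.34, adjusted p = 0.0695). Atf3, a stress-induced relative of ATF4, stood at 10.21, 9.92 and 9.42 with LPS plus IFNg, at 9.81, 9.48 and 10.27 with IL4 and at 9.02 and 9.03 without stimulus. Atf5, which is controlled by translation like Atf4, stood at 6.25, 6.36 and 7.23 with LPS plus IFNg, at 7.42, 7.15 and 6.87 with IL4 and at 5.90 and 5.99 without stimulus. For both genes every stimulated library lay above both unstimulated ones, and neither passed in any comparison (adjusted p of 0.186 or more).

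The same 4 genes rose in LPS plus IFNg over IL4, with log2 differences of 6.04 for Nupr1, 3.81 for Jdp2, 2.80 for Slc7a11 and 2.20 for Cebpb, and each passed whichever library was left out. Slc1a5, a neutral amino acid transporter, and Herpud1, a protein of endoplasmic reticulum degradation, fell by 3.85 and 2.61 (adjusted p = 0.00827 and 0.0132). Slc1a5 was at 4.58, 4.02 and 2.34 with LPS plus IFNg, against 6.93, 7.85 and 7.72 with IL4 and 5.62 and 5.67 without stimulus. Herpud1 was at 6.57 and 6.31 without stimulus. For both genes the unstimulated libraries lay between those of the 2 stimuli, without overlap. The other 22 of 28 did not pass, and the list median was 0.48. Of all genes tested, 5.91% passed as higher and 6.96% as lower in this comparison. With IL4 over no stimulus 0 of 28 passed in limma, where 0.514% of all genes passed as higher and 0.793% as lower. At an unadjusted p under 0.05, 8 were higher and 3 lower, with 12.1% of all genes in either direction. Among the higher ones was Slc7a11, at 5.84, 6.64 and 7.31 with IL4, against 4.56 and 4.01 without stimulus (log2 difference 2.32, adjusted p = 0.0929). Slc7a11 passed there when the 0.25 of genes with the lowest means were left out (adjusted p = 0.0296) and in no other alternative run, with adjusted p of 0.0644 to 0.369 with a library left out.

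Of 24 tested genes of folate one-carbon metabolism and of serine and glycine use, 1 fell with LPS plus IFNg over no stimulus and 0 rose (list median -0.12). At an unadjusted p under 0.05, 1 was higher and 4 lower. These counts lie near the shares of all genes, of which 3.72% passed as higher, 4.25% as lower and 19.4% at the unadjusted threshold. The gene that fell was Tyms, thymidylate synthase, whose listed value was 0 in each of the 3 LPS plus IFNg libraries and which stood at 3.90, 4.99 and 6.12 with IL4 and at 4.73 and 5.08 without stimulus. The call over no stimulus was lost without LPS plus IFNg replicate 2 or 3 or either unstimulated library (adjusted p up to 0.0721). Against IL4, 4 fell and 1 rose with LPS plus IFNg, beside 6.96% and 5.91% of all genes, with a list median of -0.33. Tyms was among those that fell (adjusted p = 0.00756). Mat2a, which makes S-adenosylmethionine, fell by 2.44 (adjusted p = 0.0168) and Gcsh, of the glycine cleavage system, fell by 2.06 (adjusted p = 0.0285). Their means without stimulus, 9.19 and 6.21, lay between those of the 2 stimuli. Gcsh did not pass with housekeeping scaling. Gcsh passed in 3 and Mat2a in 5 of 8 fits with a library left out, with adjusted p up to 0.0925 and 0.0672. Shmt1, the cytosolic relative of Shmt2, was listed at 0 in all 6 stimulated libraries and at 0.23 and 1.86 without stimulus. Mthfd2l, a relative of Mthfd2, was at 0, 3.75 and 0 with LPS plus IFNg, at 0, 2.33 and 4.28 with IL4 and at 0.15 and 0 without stimulus. Mthfd1l, the mitochondrial formyl-tetrahydrofolate synthetase, was at 4.81, 4.30 and 5.36 with LPS plus IFNg, at 6.43, 4.78 and 6.72 with IL4 and at 3.86 and 5.01 without stimulus, and the groups of both genes overlapped. With IL4 over no stimulus 0 of 24 passed (0 higher and 2 lower at an unadjusted p under 0.05, with 12.1% of all genes in either direction).

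**Figure D4:**
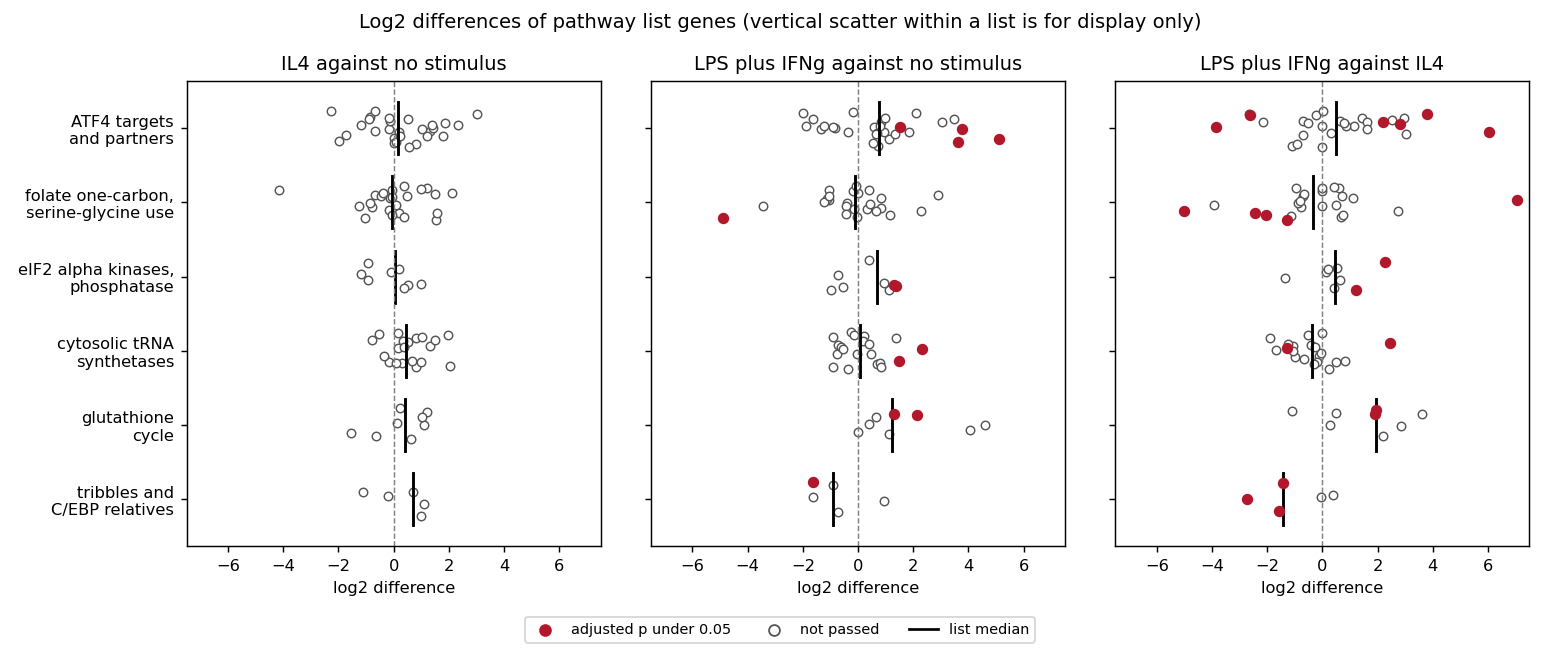
Log2 differences (horizontal axis) of the genes of 6 pathway lists (rows) in the 3 comparisons; filled points passed at an adjusted p under 0.05 and black bars are list medians. No list gene passed for IL4 against no stimulus, and Slc7a11 (5.12), Nupr1 (3.76) and Jdp2 (3.63) are the filled points farthest to the right in the middle panel, while the filled point farthest to the left there, and in the right panel, is Tyms, which is listed at 0 with LPS plus IFNg.

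Among 8 genes of eIF2 alpha phosphorylation, 2 rose with LPS plus IFNg over no stimulus and over IL4, and 0 fell: Eif2ak2, the kinase PKR that double-stranded RNA activates and interferon induces, by 1.31 and 2.25 (adjusted p = 0.0398 and 0.00216), and Ppp1r15b, the constitutive phosphatase subunit, by 1.38 and 1.21 (0.0472 and 0.0371). Over no stimulus Eif2ak2 passed in 2 and Ppp1r15b in 1 of 8 fits with a library left out (up to 0.185 and 0.250), and over IL4 in 8 and 1. Of 20 cytosolic aminoacyl-tRNA synthetases, many of which are ATF4 targets, Wars and Aars rose over no stimulus and 0 fell. Compared with IL4, Wars was higher and Rars lower with LPS plus IFNg. Beside the counts of both lists, 3.72% of all genes passed as higher and 4.25% as lower over no stimulus. Over IL4 these shares were 5.91% and 6.96%. Wars, which interferon gamma also induces, was at 7.66, 8.54 and 7.65 with LPS plus IFNg. It was at 5.23, 5.72 and 5.53 with IL4 and at 5.57 and 5.72 without stimulus. Its log2 difference from no stimulus with LPS plus IFNg was 2.30 (limma adjusted p = 0.0123). The call was lost without unstimulated replicate 1 or 2 and kept without any other single library. Aars differed from no stimulus by 1.48 (adjusted p = 0.0388). That call was lost without IL4 replicate 1 or 3 and without any single LPS plus IFNg or unstimulated library. It was also lost with only the 2 groups compared, the 0.25 of genes with the lowest means left out, or the replicate block. Rars differed from IL4 by -1.28 (adjusted p = 0.0450). This call was lost without any single IL4 or unstimulated library, and without LPS plus IFNg replicate 1 or 3. The mean of Rars was 7.67 with LPS plus IFNg, 8.95 with IL4 and 6.99 without stimulus, so it was lower than with IL4 but not lower than without stimulus. Rars did not pass with housekeeping scaling, with the replicate block or without the intensity trend, and its sign turned with ribosomal protein scaling (0.18).

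The calls that follow stand beside 3.72% of all genes higher and 4.25% lower with LPS plus IFNg over no stimulus. Over IL4 these shares were 5.91% and 6.96%. In the glutathione list, which Chac1 belongs to by function, Gclm, the regulatory subunit of glutathione synthesis, and Gsr, glutathione reductase, rose by 2.13 and 1.32 with LPS plus IFNg over no stimulus (adjusted p = 0.00271 and 0.00463) and the other 6 of 8 did not pass. Both are also known targets of the factor NRF2, and both passed whichever library was left out. Of the relatives of Trib3 and of the C/EBP factors, Cebpa fell by 1.65 with LPS plus IFNg over no stimulus (adjusted p = 0.0134, and up to 0.0747 without either unstimulated library), and Cebpd, Trib1 and Cebpa fell by 2.72, 1.59 and 1.42 over IL4 (adjusted p = 0.0225, 0.0262 and 0.0107). The Cebpd call was lost without IL4 replicate 1, 2 or 3 or LPS plus IFNg replicate 1 or 3 (up to 0.0702). That of Trib1 was lost without IL4 replicate 1 or 2 or LPS plus IFNg replicate 2 or 3 (up to 0.0843). The fall of Cebpa over no stimulus did not pass with housekeeping scaling, ribosomal protein scaling or the replicate block (adjusted p up to 0.621). The falls of Cebpa and Trib1 against IL4 did not pass with housekeeping scaling. The sign of Cebpa against IL4 turned with ribosomal protein scaling (0.037). Trib1, a relative of Trib3, was at 6.01, 5.14 and 5.25 with LPS plus IFNg, against 7.31, 7.09 and 6.76 with IL4 and 6.20 and 6.53 without stimulus. All LPS plus IFNg libraries of Trib1 lay below all IL4 libraries, the other way round from Trib3. Trib2, a further relative, was at 4.12, 2.28 and 2.93 with LPS plus IFNg, at 4.67, 0 and 3.47 with IL4 and at 3.23 and 4.41 without stimulus, and did not pass. Chac2, the relative of Chac1, was at 4.04, 5.23 and 5.75 with LPS plus IFNg, at 3.38, 0 and 5.03 with IL4 and at 4.50 and 4.19 without stimulus, and did not pass. For IL4 over no stimulus, 0 genes of these 4 lists passed in limma (5 higher and 1 lower tRNA synthetases, 0 higher and 2 lower eIF2 alpha genes, 0 higher and 1 lower glutathione genes and 0 relatives at an unadjusted p under 0.05). Of all genes, 12.1% had an unadjusted p under 0.05 there, in either direction.

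Among 7282 other genes with a mean level of at least 5, those whose levels over the 8 libraries were most like Atf4 were Lrrc59 (Pearson's r 0.97), Papd7 (0.96) and BC046331 (0.94), and those most like Mthfd2 were Txndc17 (0.97), Pgap2 (0.95) and Slc35b1 (0.95). These are descriptions over libraries that share groups. Asns had a mean of 3.98 and was not matched.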

How the data were processed

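The members, pathway lists and rule for named genes were chosen with earlier results of these data known. The authors deposited 1 table of log2 expression, quantile normalised per its name, with 20259 rows and 8 columns, all used; columns were matched to samples by barcode, and the table's group line matched in all 8. The submitters' processing notes name TopHat and build mm9; for versions, the counting tool and zeros: not given in the sources used here. 1 row without a symbol and 6643 rows with 1 value in every library were left out. A limma model (version 3.58.1, R 4.3.3) with 1 mean for each group and an intensity trend used all 8 libraries, with two-sided tests, Benjamini-Hochberg adjustment over 13615 genes and a threshold of 0.05; the fits were tested on simulated data. Named list genes are the up to 4 largest changes past the threshold per list and comparison, and set relatives of members. Cebpb and Herpud1 against IL4, and Slc1a5, Slc1a4, Pck2 and Slc38a2 over no stimulus, were added after their values were seen. Some list genes are counted but not reported here by name. Promoters are from RefSeq (GRCm38.p6), used for sequence only. Alternatives were no trend, only the 2 groups compared, the 0.25 of genes with the lowest means left out, log2 of the linear value plus 1, housekeeping and ribosomal protein scaling, a replicate block, and leaving out each library; running them on the pathway lists was added after seeing the data.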

Additional observations from a re-analysis of the deposited data

How the results depend on the processing

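Depth is unknown and limits the low members: Chac1, Phgdh, Psph, Asns and Trib3 have means under 5, where values come in steps. The number of members lower was 0 in every comparison and setting run, and the number higher was 0 for IL4 over no stimulus in every one. For LPS plus IFNg over no stimulus the number higher, 1 as reported, was 0 without the intensity trend, 2 with housekeeping scaling, 5 with ribosomal protein scaling 0 with the replicate block, and 0 to 1 with a library left out. Over IL4 it was 2 without the 0.25 of genes with the lowest means, 2 with housekeeping scaling, 4 with ribosomal protein scaling, 0 with the replicate block, and 0 to 1 with a library left out. Ribosomal protein scaling moved the median of all genes to 1.41 over no stimulus and 1.46 over IL4, and called 5250 and 6587 genes higher, so members should be read against that shift. The share of genes called higher moved likewise with housekeeping scaling, at 1002 higher and 275 lower over no stimulus in place of 506 and 579, and 1423 and 523 over IL4 in place of 804 and 948. The replicate numbers share no stated source, and deviations of same-numbered libraries correlated at -0.08 to 0.07 across 7283 genes, so the block does not stand for a pairing; it gave 255 higher and 256 lower over no stimulus for LPS plus IFNg, and 7 and 1 for IL4. Fitting only the 2 groups gave 7 and 0 for IL4 in place of 70 and 108.

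Of 447 refits of single members, 391 kept direction and side of the threshold, 10 newly passed, 16 no longer passed and 30 changed sign, none of them past the threshold. With a library left out, the log2 change from no stimulus with IL4 ranged from -1.99 to 0.28 for Trib3, -0.040 to 1.40 for Asns, -1.05 to 1.70 for Phgdh, -0.47 to 1.58 for Shmt2 and -0.37 to 1.93 for Chac1; with LPS plus IFNg from -0.50 to 0.92 for Asns, -0.86 to 1.995 for Psph and -1.72 to 0.33 for Shmt2; and for LPS plus IFNg over IL4 from -1.15 to 0.30 for Asns and -1.03 to 0.17 for Psat1. Under other settings the sign changed with the replicate block for Asns (-0.084 with IL4 and -0.46 with LPS plus IFNg over no stimulus), Psph (-0.045) and Chac1 (0.015, both LPS plus IFNg), and for Phgdh with 1 added on the linear scale (-0.053, IL4). Housekeeping scaling gave 0.26 for Chac1 over no stimulus and 0.14 for Asns and 0.27 for Psat1 over IL4, all with LPS plus IFNg. Ribosomal protein scaling gave 0.75 for Shmt2 and 1.08 for Chac1 over no stimulus, and 1.08 for Asns, 1.22 for Psat1, 0.21 for Shmt2, 0.037 for Cebpa and 0.18 for Rars over IL4. The cause of these changes was not tested beyond the shift of all genes by the scaling.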
